A study of Mus musculus with 6 samples.

Results

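The genes described here encode 8 proteins that mark mitochondria for removal or sit in mitochondrial membranes and respond to low oxygen. They are the mitophagy receptors Bnip3, Bnip3l, Fundc1, Bcl2l13 and Phb2, the mitophagy kinase Pink1, and the mitochondrial proteins Higd1a and Fam162a. They were taken by symbol from the deposited table of 56691 Ensembl gene identifiers, where all 8 were found, and all 8 passed the filter on low counts that left 16414 genes for testing. RNA sequencing covered 6 mouse libraries. In the CTM group, 3 libraries came from captured circulating tumour micro-emboli, which are clumps of tumour cells taken from the blood of mice whose breast cancer had spread to the lung. In the 4T1 group, 3 libraries came from cultured 4T1 cells, a mouse mammary carcinoma line, grown in DMEM with serum and penicillin-streptomycin, with a low adherence culture named in the titles. The labels list the same growth protocol for the CTM samples. The sources used here do not give the strain and age of the mice, their number per library, any pooling or the oxygen level of the culture. Growth in mice or in culture, passage through blood and capture differ between the groups together and cannot be told apart. Separate cultures or animals are not stated for the replicates of either group, so p-values rest on the spread between these libraries and that spread may be technical. Replicates 2 and 3 were closer to each other (median absolute log2 difference over genes of 0.10 in 4T1 and 0.11 in CTM) than to replicate 1 of their group (0.24 to 0.37), so values for replicate 1 and for the other pair are given apart where they differ. Library totals were 69178212 to 71595766 estimated counts.

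Mitophagy is the removal of mitochondria by autophagy. In one route, receptors built into the mitochondrial membranes bind LC3 and GABARAP proteins on the forming autophagosome. In the other, the kinase PINK1 accumulates on damaged mitochondria, and the mitochondria are then coated with ubiquitin that cargo receptors recognise. BNIP3 and its relative BNIP3L (NIX) are receptors whose genes are known targets of the hypoxia-inducible transcription factor HIF, as are HIGD1A and FAM162A.

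Bases around a RefSeq start site of these genes are shown because HIF is known to bind a short core, ACGTG or GCGTG, in hypoxia response elements. Windows of 250 bases before to 50 bases after the RefSeq start site (build GRCm38.p6) were in the sequence table for 7 of the 8 genes, all but Bnip3l. For Higd1a and Fundc1 the window lies wholly inside the gene as annotated in GENCODE M21, downstream of its annotated 5′ end. Both cores were searched on both strands. The windows of 3 genes whose messages rose in CTM and of Phb2, whose message fell, are printed 5′ to 3′ on the gene's strand, with matches in capitals.
Bnip3, chr7:138909457-138909756, minus strand: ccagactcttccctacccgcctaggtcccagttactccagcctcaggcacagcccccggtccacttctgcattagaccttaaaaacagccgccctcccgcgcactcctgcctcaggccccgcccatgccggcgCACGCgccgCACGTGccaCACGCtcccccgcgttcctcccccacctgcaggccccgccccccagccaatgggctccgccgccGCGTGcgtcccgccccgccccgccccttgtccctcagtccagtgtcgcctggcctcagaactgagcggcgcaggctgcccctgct
Higd1a, chr9:121857747-121858046, minus strand: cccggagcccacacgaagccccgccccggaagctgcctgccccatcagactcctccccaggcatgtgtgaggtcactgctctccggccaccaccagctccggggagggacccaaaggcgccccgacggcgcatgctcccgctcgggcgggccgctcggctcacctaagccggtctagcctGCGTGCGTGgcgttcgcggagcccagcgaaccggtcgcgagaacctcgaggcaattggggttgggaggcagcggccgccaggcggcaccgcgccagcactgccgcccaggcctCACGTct
Fam162a, chr16:36071512-36071811, minus strand: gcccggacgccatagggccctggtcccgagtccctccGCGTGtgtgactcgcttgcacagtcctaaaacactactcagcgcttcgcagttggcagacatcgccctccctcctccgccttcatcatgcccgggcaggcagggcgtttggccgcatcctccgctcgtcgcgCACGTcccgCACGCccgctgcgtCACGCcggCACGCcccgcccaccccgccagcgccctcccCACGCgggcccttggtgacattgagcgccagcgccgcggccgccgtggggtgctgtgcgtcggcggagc
Phb2, chr6:124712039-124712338, plus strand: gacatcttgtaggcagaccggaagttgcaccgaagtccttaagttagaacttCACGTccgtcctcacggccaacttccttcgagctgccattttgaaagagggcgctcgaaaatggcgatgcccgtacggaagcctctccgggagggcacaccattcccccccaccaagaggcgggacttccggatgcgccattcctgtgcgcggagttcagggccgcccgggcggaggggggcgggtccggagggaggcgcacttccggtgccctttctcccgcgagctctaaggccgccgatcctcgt

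Core matches were more frequent in these windows of Bnip3, Higd1a and Fam162a than in those of the other members. The Bnip3 window held 5 matches, 2 of ACGTG and 3 of GCGTG. The 2 ACGTG matches lie in the same palindrome, CACGTG, read on opposite strands and therefore overlap. Higd1a had 3 matches, of which both GCGTG matches overlap in the run GCGTGCGTG and the single ACGTG match, on the opposite strand, lies at base 44 after the start site. Fam162a had 6 matches, 5 of GCGTG and 1 of ACGTG. Pink1, Phb2 and Bcl2l13 had 1 match each, and Fundc1 had 0. Counts for Fundc1 and Higd1a come from inside the annotated gene and do not describe the bases upstream of its annotated 5′ end.

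Of the 32851 RefSeq windows of this length, 43.8% held at least 1 match to either core, 19.6% held ACGTG and 32.4% GCGTG. At least 3 matches were found in 8.93% of all windows and in 22.2% of the 3148 windows with a GC content of 70% or more. The windows of Bnip3, Higd1a and Fam162a had a GC content of 71.7%, 72.7% and 72.3%, against 58.0% to 63.7% for the other 4. A match is a run of letters and does not show that a factor binds there.

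**Figure D1:**
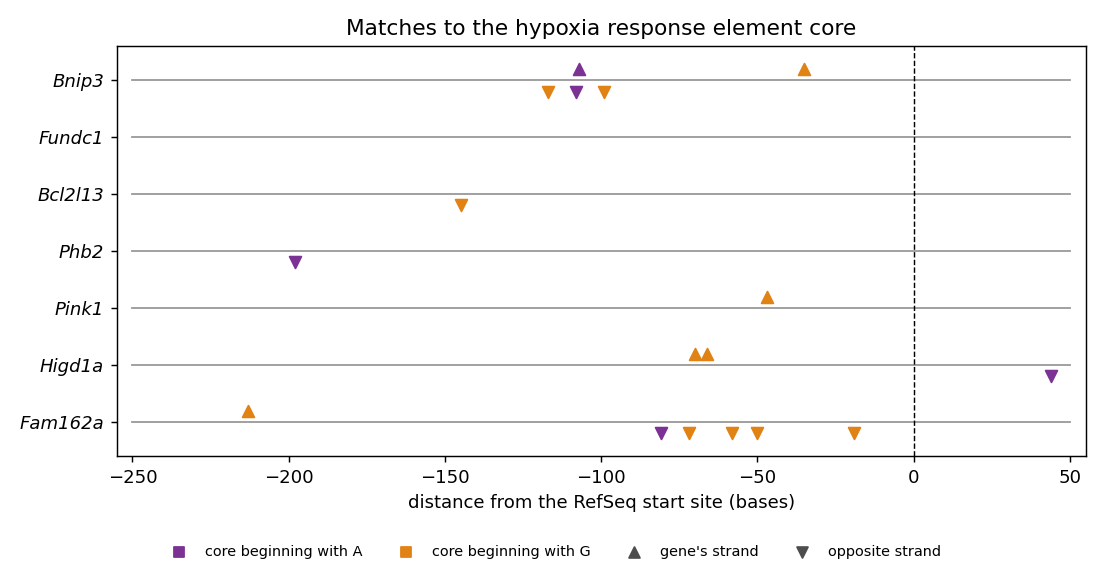
Positions of matches to the 2 hypoxia response element cores around the RefSeq start site of 7 of the genes, with a line per gene. Distance in bases is on the horizontal axis (negative is upstream of that site). Colour gives the first base of the core, upward triangles the gene's own strand and downward triangles the opposite strand. Fam162a shows 6 matches, Bnip3 5 and Higd1a 3, and the other genes 0 or 1.

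Of the 8 genes, 4 rose in CTM (Higd1a, Bnip3, Fam162a and Bnip3l), 1 fell (Phb2) and 3 did not pass the test (Pink1, Fundc1 and Bcl2l13). The test was the edgeR quasi-likelihood test with Benjamini-Hochberg adjustment over all genes tested and a threshold of 0.05. By it, 27.9% of all tested genes were called, 14.2% as higher and 13.7% as lower in CTM. The median log2 fold change of the 8 genes was 0.79 and that of all tested genes -0.02. The groups did not overlap in 7 of the 8 genes, 6 higher and 1 lower, against 48.3% of all genes without overlap, 24.8% higher and 23.5% lower. Alternative fits called different shares of all genes, which bear on how their calls of single genes are read. The share was 28.2% with library totals alone, 27.9% with DESeq2 size factors, 37.6% with the DESeq2 test, 55.7% with limma voom, 13.9% with no filter and 41.9% with a filter of 5 CPM. It was 27.9% without mitochondrially encoded genes, 26.2% with a replicate block, 51.8% without both libraries numbered 1, 35.2% with counts divided by 4 and 27.9% with copies of the genes added. Leaving out 4T1 replicate 1, 2 or 3 gave 39.3%, 17.1% and 17.6%, and leaving out CTM replicate 1, 2 or 3 gave 22.2%, 15.0% and 16.8%. Levels below are CPM, the share of a library taken by a gene, scaled by the TMM method.

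**Figure D2:**
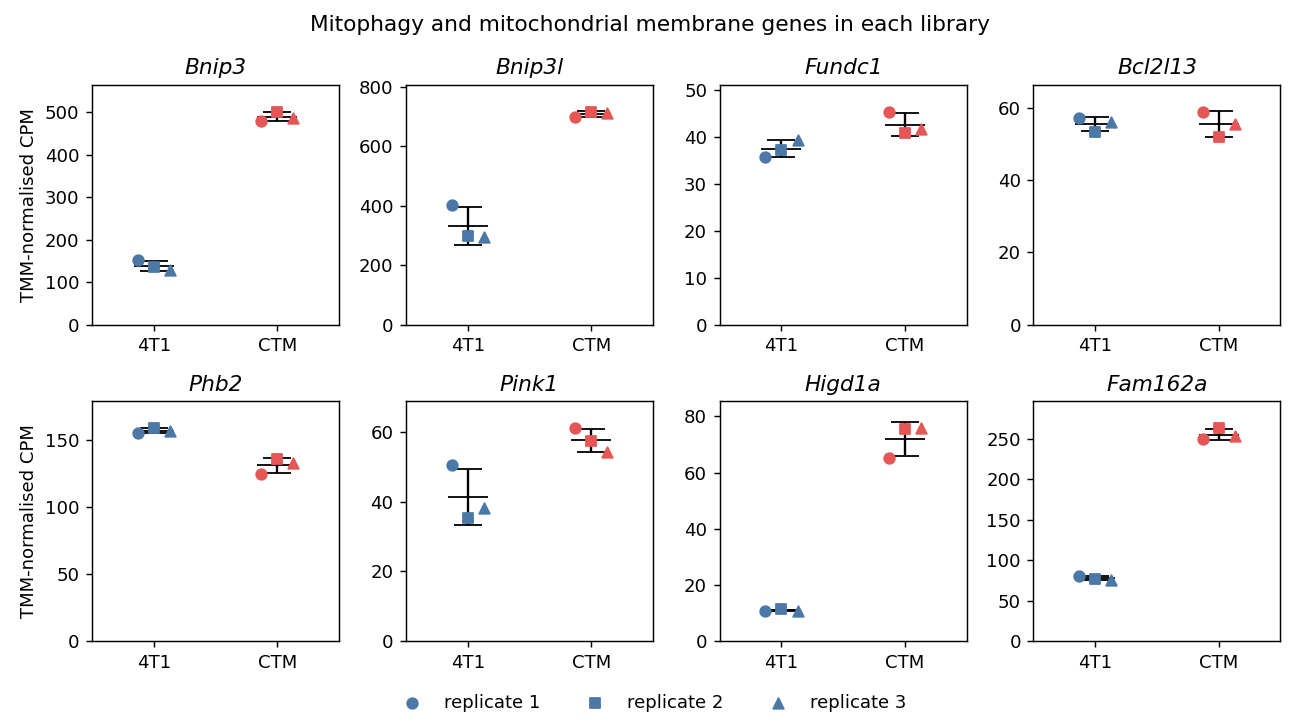
TMM-normalised CPM of each gene in the 3 libraries of 4T1 cells (blue) and the 3 of CTM (red), on linear axes that start at 0. Symbols mark the replicate number and black bars the mean and SD of 3 libraries. Higd1a, Bnip3, Fam162a and Bnip3l are far apart between groups, while the Bcl2l13 values of the groups interleave.

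Among the outer membrane receptors, Bnip3 (ENSMUSG00000078566, chr7:138890836-138909519, minus strand) read 151, 135 and 129 CPM in 4T1 replicates 1, 2 and 3, against 480, 501 and 486 CPM in the CTM replicates in the same order. All CTM libraries were far above all 4T1 libraries. Gene coordinates are those of GENCODE M21 on GRCm38. This was a 3.53-fold rise, with a log2 fold change of 1.82 (SE 0.09, edgeR adjusted p = 0.000168). The level of Bnip3 moved from above 90.6% of the tested genes in 4T1 to above 98.4% in CTM.

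Bnip3l (ENSMUSG00000022051, chr14:66985239-67008877, minus strand), which is required for the clearance of mitochondria from maturing red blood cells, read 405, 298 and 294 CPM in the 4T1 libraries, against 700, 717 and 712 CPM in the CTM libraries. The groups did not overlap, and 4T1 replicate 1 was the highest of its group. The rise was 2.14-fold, with a log2 fold change of 1.10 (SE 0.14, edgeR adjusted p = 0.00206). Without 4T1 replicate 1 it was 1.26. The log2 difference was 0.79 between the replicates numbered 1 and 1.27 between those numbered 2 and 3. Bnip3l lost its call when the mean of replicates 2 and 3 counted as 1 sample (edgeR adjusted p = 0.0547), a choice made after seeing the data under which 2.86% of all genes were called.

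Copies of both genes in the annotation could take part of their reads. Bnip3l-ps, a transcribed processed pseudogene 99.4% identical to Bnip3l over 1131 bases, read 40.2, 35.9 and 32.7 CPM in the 4T1 libraries, against 82.4, 75.4 and 77.7 CPM in the CTM libraries. These values followed those of Bnip3l at a lower level. The copy of Bnip3 with the most reads, AC160336.1, reached at most 7.03 CPM. With all such look-alike transcripts of Bnip3, Bnip3l and Higd1a added to their genes, the log2 fold changes were 1.80 for Bnip3 and 1.10 for Bnip3l. The added transcripts include Gm45507 and Gm47112, which are antisense to Bnip3 and Higd1a at the same locus and are not copies.

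Fundc1 (ENSMUSG00000025040, chrX:17556564-17572325, minus strand) encodes an outer membrane receptor of mitophagy under low oxygen that is regulated by phosphorylation. It read 35.8, 37.3 and 39.5 CPM in the 4T1 libraries, against 45.4, 40.8 and 41.8 CPM in the CTM libraries. The groups did not overlap, but the gap between them was smaller than the range within CTM. The log2 fold change of 0.19 (95% interval -0.04 to 0.41) did not pass, at an edgeR adjusted p of 0.196. The log2 difference was 0.34 between the replicates numbered 1 and 0.11 for the other pair, and none of 18 alternative fits called it.

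Bcl2l13 (ENSMUSG00000009112, chr6:120836212-120892842, plus strand) encodes a mammalian counterpart of the yeast receptor Atg32. It read 57.1, 53.4 and 56.2 CPM in the 4T1 libraries, against 58.9, 51.8 and 55.5 CPM in the CTM libraries. The values of the groups interleaved. Its log2 fold change was 0.00 to 2 decimals, with a 95% interval of -0.22 to 0.21 (edgeR adjusted p = 0.982). On the opposite strand the gene overlaps Bid, a cell death gene, over 913 bases, and the sources used here do not give the strand setting of the counting. Bid fell 1.97-fold, from 60.2 ± 7.74 to 30.6 ± 1.73 CPM (SD, n = 3 per group; edgeR adjusted p = 0.00222).

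Phb2 (ENSMUSG00000004264, chr6:124712336-124716950, plus strand) encodes a prohibitin of the inner membrane that becomes a receptor once the outer membrane is ruptured. It read 155, 159 and 157 CPM in the 4T1 libraries, against 124, 135 and 133 CPM in the CTM libraries. All 3 CTM values lay below all 3 4T1 values. The log2 fold change was -0.26 (SE 0.08), a 1.20-fold fall that passed narrowly at an edgeR adjusted p of 0.0460. The call was lost in 8 of 18 alternatives, among them each single library left out other than 4T1 replicate 1 (edgeR adjusted p from 0.0971 without CTM replicate 1 to 0.158 without CTM replicate 3) and the replicate block (0.0608). The direction was the same in all 18.

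Pink1 (ENSMUSG00000028756, chr4:138313409-138326307, minus strand) read 50.5, 35.4 and 38.2 CPM in the 4T1 libraries, against 61.0, 57.2 and 54.3 CPM in the CTM libraries. The groups did not overlap, with 4T1 replicate 1 between the other 4T1 libraries and CTM. Its log2 fold change of 0.48 (95% interval 0.13 to 0.83, not adjusted for the number of genes) just missed the threshold at an edgeR adjusted p of 0.0519. Without 4T1 replicate 1 it was 0.64 and passed (edgeR adjusted p = 0.00172), and with the replicate block it was 0.49 and passed (0.0384). The log2 difference was 0.27 between the replicates numbered 1 and 0.60 for the other pair. In all, 7 of 18 alternatives called it, each of them as higher in CTM.

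The largest change of the 8 was that of Higd1a (ENSMUSG00000038412, chr9:121848563-121858362, minus strand), which encodes an inner membrane protein that associates with the respiratory chain. It read 10.6, 11.3 and 10.9 CPM in the 4T1 libraries, against 65.0, 75.4 and 75.8 CPM in the CTM libraries. The lowest CTM library was several times the highest 4T1 library. The rise was 6.58-fold, with a log2 fold change of 2.72 (SE 0.11, edgeR adjusted p = 0.000128), the fourth smallest p of all tested genes. Its level was above 43.2% of tested genes in 4T1 and above 80.1% in CTM.

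Fam162a (ENSMUSG00000003955, chr16:36043761-36071594, minus strand) is linked to cell death under low oxygen. It read 80.7, 76.6 and 76.2 CPM in the 4T1 libraries, against 249, 263 and 253 CPM in the CTM libraries. The spread within each group was small beside the gap between them. The log2 fold change was 1.71 (SE 0.08, edgeR adjusted p = 0.000128), a 3.28-fold rise. Bnip3, Higd1a and Fam162a passed in all 18 alternatives, with log2 fold changes of 1.74 to 1.90, 2.64 to 2.80 and 1.63 to 1.76.

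**Figure D3:**
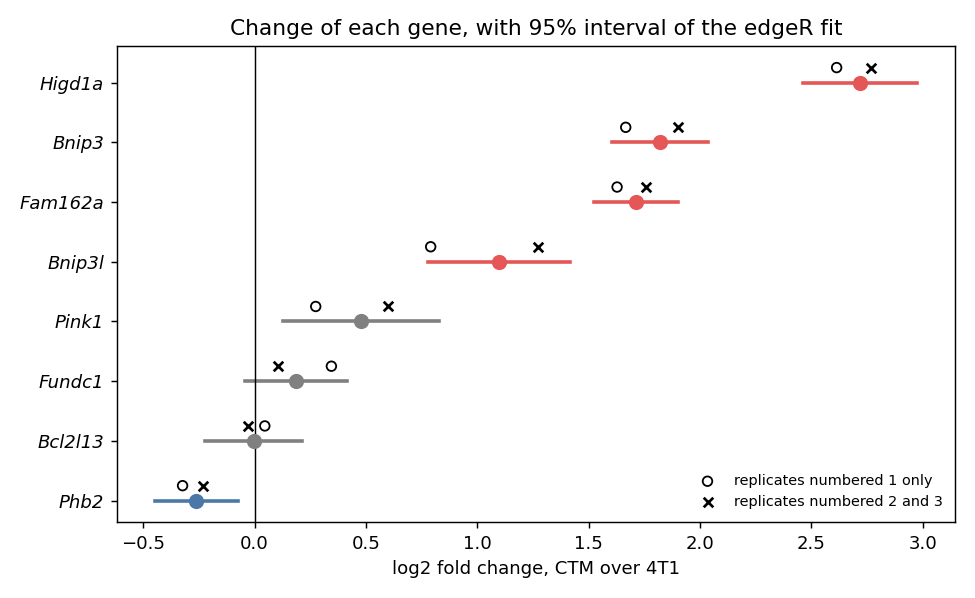
Log2 fold change of each gene in CTM over 4T1 (filled circles) with its 95% interval from the edgeR fit (bars), red where higher, blue where lower and grey where the test was not passed. Open circles give the difference between the replicates numbered 1 and crosses that between the replicates numbered 2 and 3. Higd1a at 2.72, Bnip3 at 1.82, Fam162a at 1.71 and Bnip3l at 1.10 lie clear of 0 on both measures.

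To set levels of different genes side by side, CPM were divided by the exon length of each gene in kilobases (GENCODE M21, all exons joined). That length counts all annotated transcripts and may differ from what the cells made. In 4T1 the order of levels in CPM per kilobase was Fam162a at 91.6 ± 2.91, Bnip3l at 86.1 ± 16.3, Bnip3 at 61.1 ± 4.98, Phb2 at 42.2 ± 0.449, Fundc1 at 15.9 ± 0.788, Pink1 at 15.5 ± 2.999, Bcl2l13 at 6.11 ± 0.211 and Higd1a at 3.60 ± 0.114 (SD, n = 3). Fam162a and Bnip3l overlapped between libraries, as did Fundc1 and Pink1.

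In CTM the order was Fam162a at 300.1 ± 8.42 CPM per kilobase, Bnip3 at 216 ± 4.85, Bnip3l at 184 ± 2.33, Phb2 at 35.2 ± 1.59, Higd1a at 23.7 ± 2.01, Pink1 at 21.5 ± 1.26, Fundc1 at 18.1 ± 1.04 and Bcl2l13 at 6.10 ± 0.392 (SD, n = 3). Higd1a and Pink1 overlapped between libraries. On this scale Bnip3 and Bnip3l changed places between the groups, without overlap in either. Higd1a moved from the lowest level of the 8 to the fifth highest. The swap of Bnip3 and Bnip3l rests on the exon lengths used, 2265 and 3859 bases. In CPM alone, Bnip3 was below Bnip3l in all 6 libraries.

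The genes nearest to Bnip3 in their pattern over the 6 libraries, out of 9519 genes with a mean of at least 10 CPM, were P4hb, Fam162a, P4ha1, Hspa5 and Unc13a. Nearness was the Euclidean distance between log2 CPM values centred on each gene's mean, which was 0.15 for P4hb and 0.17 for Fam162a. Bnip3l came at rank 198, with a smaller rise. The nearest to Higd1a were Emilin2, Nos2, Ankrd37, Car9 and Ndrg1, at distances of 0.29 to 0.48, with Bnip3 at rank 40 and Fam162a at rank 54.

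Calls in this and the following lists are to be read beside the 14.2% of all tested genes called higher and 13.7% called lower. Among genes of the ubiquitin route, 6 of 21 tested rose (28.6%) and 1 fell (4.76%), and their median log2 fold change was 0.29. Sqstm1, the cargo receptor p62, rose 2.28-fold, from 826 ± 166 to 1883 ± 121 CPM (SD, n = 3 per group; edgeR adjusted p = 0.00191). Usp30, a deubiquitinase of the outer membrane that opposes mitophagy, rose 1.75-fold, from 29.9 ± 2.27 to 52.4 ± 5.44 CPM (SD, n = 3 per group; edgeR adjusted p = 0.00344). Mul1, a mitochondrial ubiquitin ligase, rose 1.38-fold, and Usp15, a deubiquitinase that opposes mitophagy, fell 1.26-fold. The balance depended on the scaling and the test, with 2 risers and 2 fallers with library totals alone, 10 and 1 with DESeq2, and 14 and 4 with limma voom. The count of risers was 12 without 4T1 replicate 1, 2 without 4T1 replicate 2, without 4T1 replicate 3 or without CTM replicate 2, and 3 without CTM replicate 1 or without CTM replicate 3. Mul1 lost its call with library totals alone and without 4T1 replicate 2 or 3 or CTM replicate 2 or 3 (edgeR adjusted p without one library up to 0.0889). Usp15 lost its call with no filter, with the replicate block and without any single library other than 4T1 replicate 1 (edgeR adjusted p without one library up to 0.139).

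Of 17 further receptors, prohibitin partners and regulators, 5 rose (29.4%) and 3 fell (17.6%), with a median of 0.22. Without 4T1 replicate 1 the counts were 9 and 5, and with limma voom 10 and 6. Fundc2, a relative of Fundc1, rose 1.83-fold, from 64.0 ± 3.99 to 117 ± 4.93 CPM (SD, n = 3 per group; edgeR adjusted p = 0.00121). Vdac1, the main channel of the outer membrane, rose 1.80-fold, and Tbc1d15, a regulator of RAB7 during mitophagy, rose 1.85-fold. Phb, the prohibitin that forms a complex with Phb2, fell 1.72-fold, from 137 ± 13.3 to 79.5 ± 0.949 CPM (SD, n = 3 per group; edgeR adjusted p = 0.00209). Bcl2l1, the survival factor BCL-XL, fell 1.82-fold. Nipsnap1, a matrix protein that flags damaged mitochondria, fell 1.36-fold, a call lost without CTM replicate 2 (edgeR adjusted p = 0.0561). The reads of Phb, Vdac1 and other abundant messages may be shared with pseudogenes, which was not examined for them.

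Of the 5 LC3 and GABARAP genes, whose products the receptors bind, 2 rose (40%) and 3 did not pass, with a median of 0.71. Gabarap read 200, 157 and 159 CPM in the 4T1 libraries, against 433, 385 and 351 CPM in the CTM libraries. It rose 2.26-fold (edgeR adjusted p = 0.00145). Gabarapl1 rose 2.09-fold, from 68.0 ± 6.16 to 142 ± 8.36 CPM (SD, n = 3 per group; edgeR adjusted p = 0.000991), and both passed in all 18 alternatives. Map1lc3b had a log2 fold change of 0.71 (edgeR adjusted p = 0.0599), Gabarapl2 of 0.19 and Map1lc3a of 0.12. Without 4T1 replicate 1, and with limma voom, there were 4 risers.

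Among 13 genes of mitochondrial fission and fusion, 2 rose (15.4%) and 3 fell (23.1%), and the median was -0.02. Over all tested genes the shares were 14.2% and 13.7%. The inner membrane proteases Yme1l1 and Afg3l2 rose 1.38-fold and 1.51-fold. Oma1, the stress protease that cleaves the fusion protein OPA1, fell 2.02-fold, from 9.90 ± 1.02 to 4.89 ± 1.45 CPM (SD, n = 3 per group; edgeR adjusted p = 0.0184). Mtfp1 and Mief2, which act in fission, fell 2.08-fold and 1.60-fold from mean levels under 5 CPM. Afg3l2 lost its call without 4T1 replicate 2 or 3 (edgeR adjusted p up to 0.0595). None of the 3 fallers passed without 4T1 replicate 2, without 4T1 replicate 3 or without CTM replicate 2. Oma1 also lost its call without CTM replicate 1, and Mtfp1 and Mief2 without CTM replicate 3 (edgeR adjusted p for the 3 genes up to 0.113). Mief2 also lost it with the replicate block, and with a filter of 5 CPM there was 1 faller.

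Of 18 genes of protein import and the outer membrane, 1 rose (5.56%) and 2 fell (11.1%), with a median of -0.22. Both shares were below those over all tested genes. Tomm20, an import receptor, rose 1.38-fold, while Tomm40, the import channel, fell 2.17-fold, from 58.4 ± 5.12 to 27.0 ± 2.04 CPM (SD, n = 3 per group; edgeR adjusted p = 0.00118). Timm50, of the inner membrane translocase, fell 1.56-fold. Tomm20 lost its call without 4T1 replicate 2 or 3 (edgeR adjusted p up to 0.0636). Timm50 lost it without 4T1 replicate 2 or 3 or CTM replicate 1 or 3 (edgeR adjusted p up to 0.0722). Without 4T1 replicate 1, 9 of the list were lower, with library totals alone 4 were, and with limma voom 10 were lower and 4 higher.

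Genes of mitochondrial biogenesis and DNA maintenance rose in 2 of 17 cases (11.8%) and fell in 3 (17.6%), with a median of -0.01. These shares were near the 14.2% and 13.7% over all tested genes. Lonp1, the matrix protease, rose 1.70-fold, from 187 ± 21.1 to 318 ± 18.8 CPM (SD, n = 3 per group; edgeR adjusted p = 0.00312), and Polg2, an accessory subunit of the mitochondrial DNA polymerase, rose 1.59-fold. The catalytic subunit gene Polg fell 1.45-fold, the coactivator gene Pprc1 2.18-fold and Polrmt, the mitochondrial RNA polymerase gene, 1.37-fold. Ppargc1a, the best known coactivator of biogenesis, was too low to test. Without CTM replicate 2 there were 1 riser and 1 faller, and without 4T1 replicate 1 there were 3 and 5. With limma voom there were 5 fallers. Polrmt lost its call with no filter and without any single library other than 4T1 replicate 1 (edgeR adjusted p up to 0.132). Polg2 lost it without 4T1 replicate 2 or 3 or CTM replicate 2 or 3 (up to 0.0808), and Pprc1 without CTM replicate 2 (0.0526).

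The messages made from mitochondrial DNA fell in 11 of 13 cases (84.6%) and rose in 0, with a median of -0.76. All mitochondrially encoded RNA together made up 2.27%, 1.92% and 1.86% of the total in 4T1 and 1.11%, 1.35% and 1.15% in CTM. These shares did not overlap between groups. mt-Nd3, a complex I subunit, fell 2.69-fold and mt-Cytb, of complex III, 1.80-fold, from 2407 ± 106 to 1336 ± 120 CPM (SD, n = 3 per group; edgeR adjusted p = 0.00121). In bulk RNA, fewer cells of a kind and less RNA per cell cannot be told apart, and none of these values measures mitochondria or their removal.

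Of the closer relatives, Bnip1, a SNARE of the endoplasmic reticulum, rose 1.51-fold and Bnip2 fell 1.24-fold, while Higd2a, an assembly factor of complex IV, had a log2 fold change of 0.09 (95% interval -0.31 to 0.48). Bnip1 lost its call without 4T1 replicate 2 or without CTM replicate 2 (edgeR adjusted p up to 0.0504), and Bnip2 without any single library other than 4T1 replicate 1 (up to 0.132). Higd1b and Higd1c were at 0 in all 6 libraries, and Bnipl was too low to test. In a mixed list of genes known to respond to low oxygen, not all of them of mitochondrial metabolism, 5 of 7 tested rose and 0 fell. Their median was 0.69. Of all tested genes, 14.2% were called higher. Pdk1, which restrains the entry of pyruvate into mitochondria, rose 1.62-fold, from 142 ± 7.26 to 230 ± 39.6 CPM (SD, n = 3 per group; edgeR adjusted p = 0.0105). Mxi1, an antagonist of MYC, rose 1.88-fold, and Lonp1, described above, is in this list too. Without CTM replicate 2 only 2 of this list passed, and Pdk1 and Mxi1 then stood at edgeR adjusted p of 0.0515 and 0.0502.

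**Figure D4:**
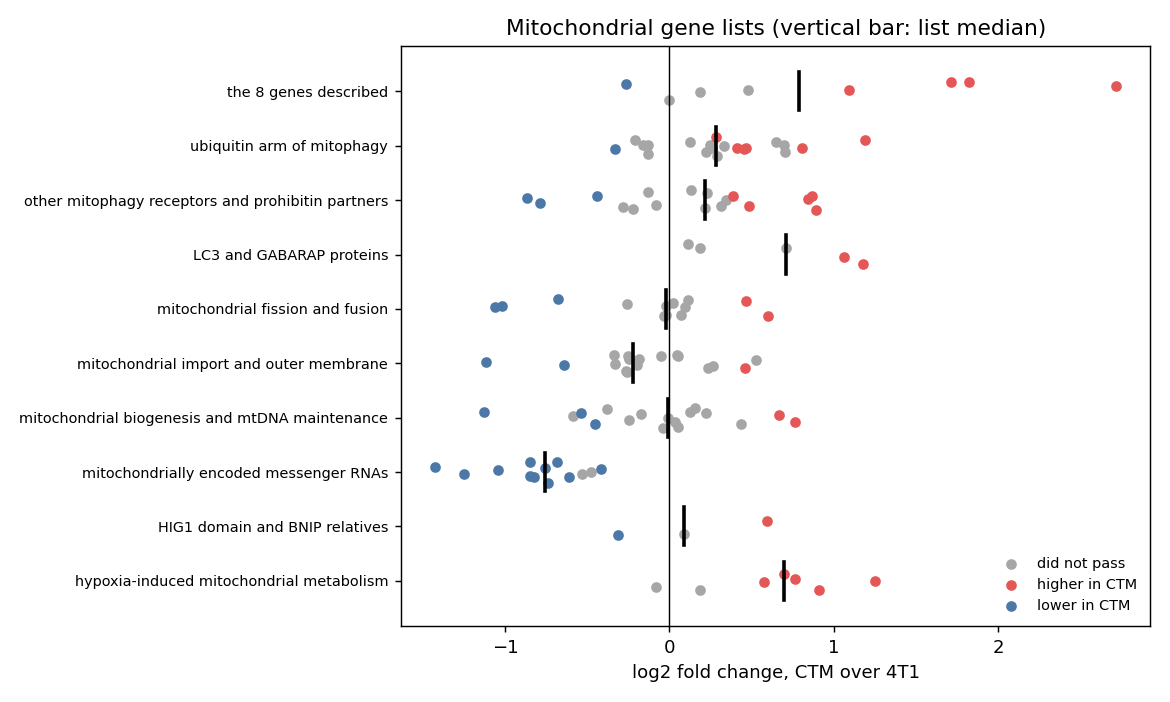
Log2 fold change in CTM over 4T1 of every tested gene in the 8 genes described and in 9 lists of related genes. Red marks higher, blue lower and grey genes that did not pass. Black bars mark list medians, at 0.79 for the 8 genes, 0.71 for the LC3 and GABARAP genes and -0.76 for the mitochondrially encoded messages. Vertical scatter within a line has no meaning.

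Of the epithelial tumour markers, Krt8 had 558 ± 21.2 CPM in CTM against 761 ± 24.5 in 4T1 (SD, n = 3 per group). Krt18 had 1011 ± 69.9 CPM in CTM against 877 ± 62.9 in 4T1 (SD, n = 3 per group). Epcam stayed under 1 CPM and Krt5 was at 0 in all 6 libraries. Krt7 fell 3.17-fold and Krt8 1.36-fold, and Krt18 did not pass. Of the 8 epithelial genes tested, 1 rose (12.5%) and 3 fell (37.5%), against 14.2% and 13.7% of all tested genes. The other called genes, named after their values were seen, were Krt19 and Cdh1. Krt19 rose 2.86-fold, from 12.6 ± 5.64 to 36.0 ± 0.719 CPM (SD, n = 3 per group; edgeR adjusted p = 0.00906). Cdh1, the gene of E-cadherin, read 113, 27.8 and 31.0 CPM in the 4T1 libraries, against 14.8, 13.1 and 15.2 CPM in the CTM libraries. Its log2 fold change was -1.998 (edgeR adjusted p = 0.0317), and -1.04 without 4T1 replicate 1. The call was lost without any single CTM library (edgeR adjusted p up to 0.111) and with no filter. Erythroid genes are given because Bnip3l is required in maturing red blood cells. The 11 found summed to 9.49, 3.36 and 2.68 CPM in the 4T1 libraries and 4.20, 4.48 and 4.31 CPM in the CTM libraries. Epb42 was at 0 in all 6. Of 7 erythroid genes tested, 0 passed, with 4 positive and 3 negative log2 fold changes. Slc4a1, the highest of them, was at 7.48 CPM in 4T1 replicate 1 and at most 1.53 elsewhere. Hepatocyte messages were present in every library, the sum of 14 being 1214 to 1327 CPM in 4T1 and 1129, 498 and 318 CPM in CTM replicates 1, 2 and 3, with Alb the highest. All 14 had a negative log2 fold change, 11 of them were lower in CTM without overlap, and 0 passed the test. The 16 leukocyte genes summed to 286 to 313 CPM in 4T1 and 167 to 198 in CTM, but most of each sum was Itgb2 and Ptpn6, which were lower in CTM. Of the 10 tested, 3 were lower (30%) and 0 higher, while 6 had a positive log2 fold change and the median was 0.19. Ptprc, the general leukocyte antigen CD45, read 0, 0.221 and 0.277 CPM in the 4T1 libraries, against 0.161, 1.08 and 1.34 CPM in the CTM libraries, and did not pass (edgeR adjusted p = 0.179). Ighm, the antibody heavy chain of B cells, read 0, 3.07 and 3.13 CPM in CTM and no more than 0.138 CPM in 4T1. It was removed by the filter and not tested, although genes of lower CPM were. Csf1r, a macrophage receptor, read 32.6 CPM in 4T1 replicate 1 and under 1 CPM elsewhere. Itgb2 lost that call without CTM replicate 2 and Ptpn6 without 4T1 replicate 2 or 3 (edgeR adjusted p up to 0.0576 and 0.0543). The 16 platelet genes summed to 285 to 486 CPM in 4T1 and 401 to 436 in CTM, mostly Itgb3, which did not pass. Of the 7 tested, 3 were higher (42.9%), among them Itga2b and Selp, and 0 lower. Their log2 fold changes were positive in 4 and negative in 3. Gp6 and Tubb1 were at 0 in all 6 libraries. The part of these other cell types in the results was not tested.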

How the data were processed

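Both RNA isolation and library preparation used SMART-Seq Ultra Low Input kits, per the labels' protocols. HISAT2 2.0.4, Bowtie 0.12.2, edgeR and mm8 appear in the submitters' processing notes without a role or order. The sources used here do not give the counting tool, its annotation or its strand setting. The values the authors deposited are estimated counts per Ensembl gene, already whole and not scaled to a fixed total. Low values pile up at 4, with 956 genes at 4 against 391 at 3 and 320 at 5 in 4T1 replicate 1. If 1 fragment is worth more than 1 count, which was not tested, counting error may be larger than the totals imply. The test had been planned for plain counts and suits estimated ones too.

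Symbols were matched to 52073 identifiers. Genes were filtered with filterByExpr, scaled by TMM and tested with the edgeR 4.0.16 quasi-likelihood F test in R 4.3.3, two-sided, on all 6 libraries without a block, with Benjamini-Hochberg adjustment at 0.05. The SE is the log2 fold change divided by the root of F, and 95% intervals use its degrees of freedom. SDs are over 3 normalised CPM values. Alternatives used limma 3.58.1, DESeq2 1.42.0 and those listed in the closing section. Copies of the genes were sought with blastn 2.17.0 among GENCODE M21 transcripts (at least 200 bases). Those of at least 95% identity that are not protein-coding were added in an alternative. Some of these are antisense transcripts of the same locus, counted with the copies. Gene coordinates (GENCODE M21) and windows (RefSeq) are on GRCm38, not on the authors' build.

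The members and lists were chosen with earlier results of these data known. The rule for naming takes all 8 genes, from each list up to 3 risers and 3 fallers by smallest p (all tested genes of lists of 6 or fewer), the highest marker of each cell type and up to 2 markers that passed. Other genes were named after their values were seen. Some members of the lists are not reported here.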

Additional observations from a re-analysis of the deposited data

How the results depend on the processing

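Bnip3, Higd1a and Fam162a were called higher in each of 18 alternatives, and Bnip3l in 17. Alternatives added after the data were seen divided the counts by 4, dropped both libraries numbered 1, took the mean of libraries numbered 2 and 3 as 1 sample, or added copies to the genes. Of the 8 genes, none was lower without a filter, with the replicate block, with libraries 2 and 3 averaged, or in 5 of the 6 fits without one library (range 0 to 1), which is the loss of Phb2. Over all genes, limma voom gave 4514 higher and 4628 lower, dropping both libraries numbered 1 gave 4239 and 4340, the averaged fit 276 and 200, and fits without one library 1334 to 3323 higher and 1208 to 3326 lower. With library totals alone the balance moved to 1900 higher and 2731 lower, from 2323 and 2252. Of the 122 pathway genes, 113 were tested. Of these, 23 were higher (20.4%) and 24 lower (21.2%), against 14.2% and 13.7% of all tested genes, and 11 of the 24 were mitochondrially encoded. The counts were 17 and 30 with library totals alone, 43 and 42 with limma voom, 41 and 42 without both libraries numbered 1, 3 and 5 with averaging, and 13 to 37 and 15 to 37 without one library. Without mitochondrially encoded genes 13 were lower, because that list is then gone. Of the 40 other named genes that passed, 8 passed in every alternative that tested them, and 32 lost their call in the averaged fit. Slc4a1, not called, reversed to log2 fold changes of 2.44 with limma voom, 2.45 without 4T1 replicate 1 (range -1.65 to 2.45 over fits without one library) and 2.70 without both libraries numbered 1. The labels do not pair the samples by replicate number. Deviations of same-numbered libraries from their group means correlated at 0.06, 0.02 and 0.01 over genes, against -0.06 to 0.06 for differently numbered libraries. Such values from 3 libraries per group do not settle whether same-numbered libraries were handled together. With the replicate block, 4297 genes were called instead of 4575, Phb2 lost its call (log2 fold change -0.26) and Pink1 gained one (0.49). The causes of these shifts were not tested.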

Other observations

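Ratios within a library do not depend on how libraries are scaled. These 3 ratios, of the CPM of a gene over that of its relative, were chosen after the values were seen, so they are given without a test. Bnip3 over Bnip3l was 0.374, 0.453 and 0.440 in 4T1 and 0.685, 0.699 and 0.683 in CTM. Fundc2 over Fundc1 was 1.66, 1.79 and 1.66 in 4T1 and 2.68, 2.87 and 2.68 in CTM. Phb over Phb2 was 0.783, 0.922 and 0.910 in 4T1 and 0.648, 0.585 and 0.591 in CTM. The groups did not overlap in any of the 3 ratios.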
